A study of Mus musculus with 15 samples.

Results

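Macrophages labelled as expressing a control-CAR were compared with untreated, wild-type Hoxb8 macrophages, to see what the control construct alone did to the transcriptome. The members are the 3 control-CAR and the 3 Hoxb8 macrophage libraries, 6 of the 15 libraries of the series, chosen by their labels, and all 17030 genes of the deposited table. The other 9 libraries are progenitor cells, CAR macrophages and bone marrow-derived macrophages (BMDM), 3 of each. All 6 libraries are mouse, from bone marrow, and are labelled as primary cells and as macrophages. The control-CAR libraries carry the genotype Control-CAR expression and the treatment Control-CAR treated, and the Hoxb8 macrophages are labelled WT and untreated. The labels do not say what the control construct holds or lacks, how it was delivered, whether the Hoxb8 macrophages received an empty vector, or whether the control-CAR cells were derived from the same Hoxb8 progenitors. The labels do not say that replicates came from separate cultures or animals either, so p-values measure a spread between libraries that may be technical. In the main fit that spread was estimated over all 15 libraries, those of the other 3 groups included.

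A chimeric antigen receptor (CAR) joins an outer domain that binds a chosen antigen to inner signalling domains, and a control version serves to separate the effect of gene delivery and of an extra surface protein from that of signalling. Hoxb8, a homeobox transcription factor, blocks the maturation of myeloid progenitors while it is forced on, and such progenitors become macrophages once it is withdrawn. In common use Hoxb8 is fused to the hormone-binding part of the estrogen receptor, so that hormone switches it on. Macrophages sense foreign nucleic acid and damage, and they answer with interferon-induced genes, with the fast immediate early transcription factors and with cytokines.

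Polyadenylated RNA was sequenced in paired reads, and the deposited table gives estimated counts and FPKM, which divides fragments by transcript length and sequencing depth, per gene. The 6 libraries held 16962834 to 18129892 estimated counts and 12946 to 13150 genes above 0, so a limit of 3 counts stands at 0.165 to 0.177 CPM (counts scaled to library size). The pairs of libraries within a group were not copies of each other. Their counts differed by a chi-square per degree of freedom of 2.97 to 15.3 in control-CAR and 4.82 to 8.46 in Hoxb8 macrophages, against 8.75 to 19.2 between the groups. Control-CAR replicate 1 stood apart within its group. The root mean square log2 difference was 0.292 between control-CAR replicates 2 and 3 and 0.303 to 0.314 within Hoxb8 macrophages. Pairs that held control-CAR replicate 1 ran from 0.3395 to 0.386. Pairs between the groups without that library ran from 0.323 to 0.347, so these 2 ranges overlapped.

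**Figure D1:**
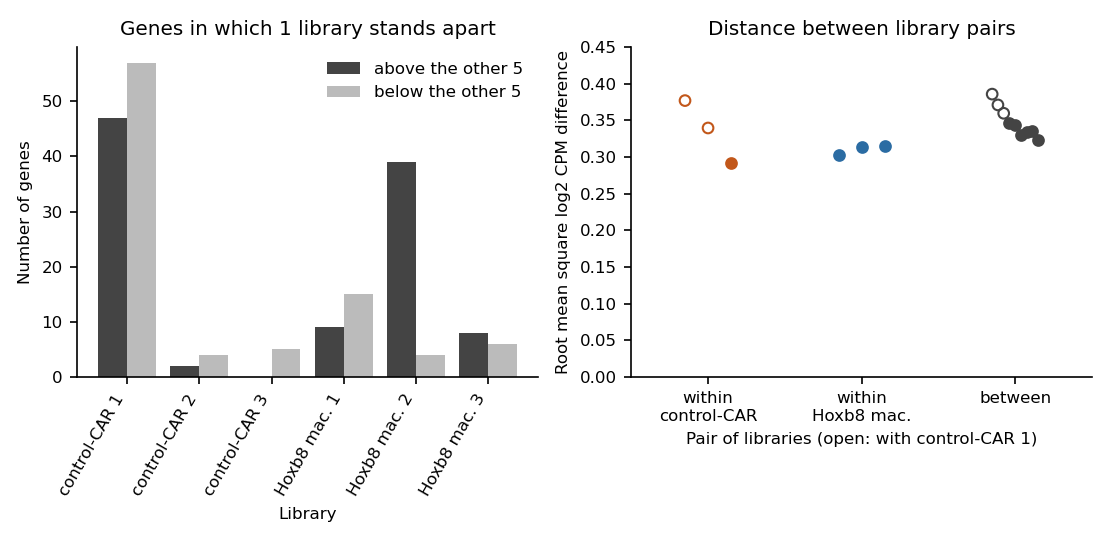
Left, the number of genes (of 5531 with 10 FPKM or more) in which a library lay outside the other 5 by over 0.3 in log2 CPM, by library. Right, the root mean square log2 difference in CPM for each pair of libraries, with pairs that hold control-CAR replicate 1 drawn open. Control-CAR replicate 1 lay above the other 5 in 47 genes and below them in 57, and Hoxb8 macrophage replicate 2 lay above them in 39.

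Few genes were called between control-CAR and Hoxb8 macrophages, most with small changes, and most of the larger called changes were falls. Of 11793 genes tested, 309 (2.62%) were called by edgeR's quasi-likelihood test at a Benjamini-Hochberg adjusted p under 0.05. Of these, 85 (0.721%) were higher in control-CAR and 224 (1.9%) lower. An unadjusted p under 0.05 was reached by 2128 of the 11793 genes, the background for such counts in the gene lists below. The median change of a called gene was 1.28-fold. Only 67 called genes changed at least 1.5-fold, 61 lower and 6 higher, and 20 changed at least 2-fold. Among the 190 called genes with a mean of at least 10 FPKM, 16 changed at least 1.5-fold. Every FPKM value of control-CAR lay on 1 side of every value of Hoxb8 macrophages in 304 of the 309 called genes. The same held in 21.9% of all tested genes, with control-CAR above in 15.1% and below in 6.82%. Overlap was judged on the deposited FPKM, which carry no TMM scaling (a correction between libraries), whereas the calls do, so the 2 balances are not on 1 scale.

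The number of calls and the balance of rises and falls rested on the scaling and on which libraries entered the fit. With library totals in place of TMM scaling, 278 genes were higher and 192 lower, and with limma on log2(FPKM + 1) 248 were higher and 157 lower. DESeq2 called 117 higher and 313 lower. A fit on the 6 libraries alone called 97 genes, 12 higher and 85 lower. Without control-CAR replicate 3 the count was 118, without Hoxb8 macrophage replicate 1 it was 106, and without Hoxb8 macrophage replicate 2 it was 170. A core of 67 genes, 61 lower and 6 higher, was called with every library in, with each of the 6 left out in turn and with the 6 libraries alone. The 6 higher genes of that core were Abhd2, Rbm3, D16Ertd472e, Iqgap2, Plekhg3 and Olfm4, a set named after its values were seen.

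**Figure D2:**
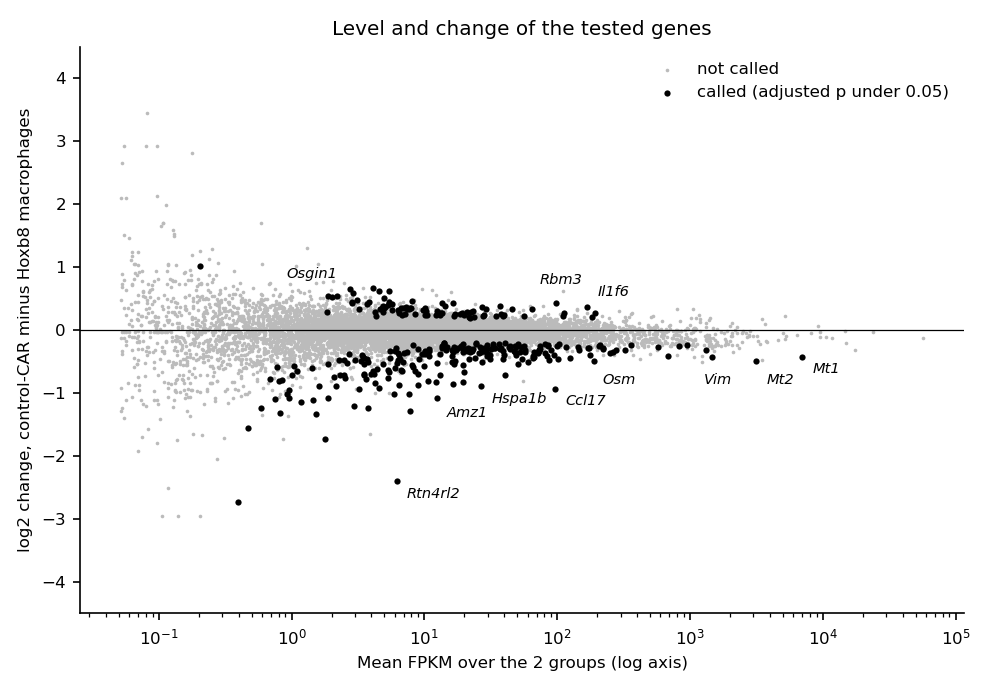
Mean FPKM over the 2 groups (log axis) against the log2 change of control-CAR minus Hoxb8 macrophages, for the 11118 tested genes above 0.05 FPKM that lie within the axes. All 309 called genes are drawn in black. All but 67 of them changed less than 1.5-fold, and Rtn4rl2 is the lowest of the called genes above 1 FPKM.

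The largest fall among genes with at least 10 FPKM was that of Rtn4rl2, a Nogo receptor family member known from neurons (chr2:84871297-84888641, GRCm38.p6). It stood at 2.28, 1.66 and 2.26 FPKM in the 3 control-CAR libraries and at 8.91, 9.94 and 12.1 FPKM in the 3 Hoxb8 macrophage libraries. The groups lay far apart with no overlap, a fall of 5.27-fold (log2 change -2.40, SE 0.14, edgeR adjusted p = 2.23e-08), and the call held in all 18 alternatives. The control-CAR level was close to that in CAR macrophages (2.32 ± 0.146 FPKM, SD, n = 3) and BMDM (2.2 ± 0.229 FPKM). The untreated Hoxb8 macrophages held the highest level of the 5 groups.

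Amz1, a zinc-dependent peptidase, read 8.25, 7.82 and 8.32 FPKM in control-CAR and 17.7, 14.5 and 17.6 FPKM in Hoxb8 macrophages. It fell 2.1-fold (log2 change -1.07, SE 0.10, edgeR adjusted p = 1.78e-05). S1pr3, a receptor for the lipid signal sphingosine 1-phosphate, read 4.36, 5.62 and 5.45 against 10.3, 10.5 and 9.4 FPKM and fell 2.01-fold (log2 change -1.01). Sphk1, the kinase that makes that lipid and a gene picked after its values were seen, read 3.1, 3.17 and 3.2 against 5.52, 4.65 and 5.96 FPKM (log2 change -0.83). In all 3 genes every control-CAR library lay below every Hoxb8 macrophage library. Lrrc32, which holds latent TGF-beta at the cell surface, read 5.75, 6.99 and 6.5 against 12.5, 10.9 and 11 FPKM (log2 change -0.87). The calls of these 4 genes held in all 18 alternatives.

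Aldh1l2, a mitochondrial enzyme of folate metabolism, read 12.4, 11.5 and 11.9 FPKM in control-CAR against 23, 20.3 and 19.6 FPKM (log2 change -0.85, edgeR adjusted p = 0.000117). Pdzk1ip1, a small membrane protein, varied most within its group, at 2.21, 7.23 and 4.54 FPKM in control-CAR against 11.2, 11.7 and 9.55 FPKM. Its log2 change was -1.29 and lay between -1.67 and -0.98 with 1 library left out. The 6 libraries alone gave it an adjusted p of 0.0531. Cyp2ab1, a cytochrome P450, read 8.1, 8.04 and 7.74 against 15.1, 12.1 and 12.5 FPKM (log2 change -0.80). Its call was lost without control-CAR replicate 3 (adjusted p = 0.051) and without Hoxb8 macrophage replicate 1 (0.0686).

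**Figure D3:**
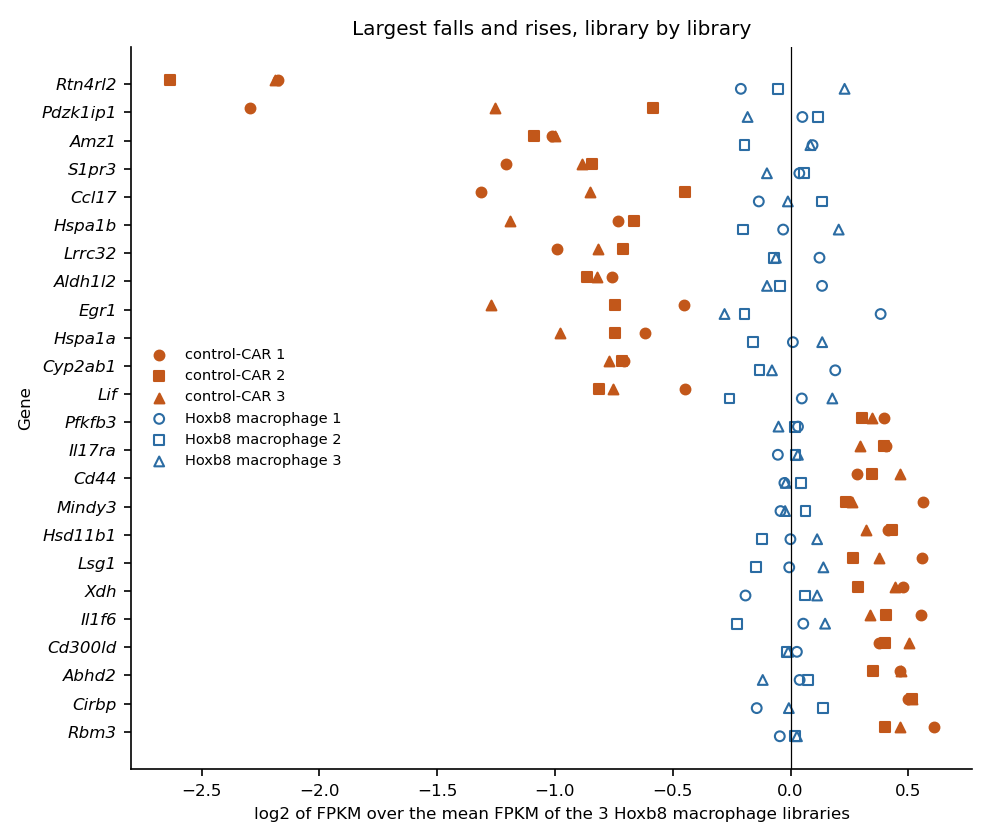
The 12 largest falls and 12 largest rises among called, non-overlapping genes with at least 10 FPKM in the higher group. Each point is 1 library, as the log2 of its FPKM over the mean of the 3 Hoxb8 macrophage libraries, with control-CAR filled and Hoxb8 macrophages open. The falls reach beyond -2 and the rises stay under 0.7, and control-CAR replicate 1 gives the lowest Pdzk1ip1 and Ccl17 points.

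Heat shock chaperones fold damaged proteins and are switched on by heat shock factors at the heat shock element. Hspa1a and Hspa1b, which encode the inducible Hsp70, were the chaperones that fell most. Hspa1a read 16.1, 14.7 and 12.5 FPKM in control-CAR and 24.9, 22.1 and 27.1 FPKM in Hoxb8 macrophages (log2 change -0.82, SE 0.09, edgeR adjusted p = 5.18e-05). Hspa1b read 20.6, 21.6 and 15 against 33.5, 29.7 and 39.4 FPKM (log2 change -0.89, SE 0.11, edgeR adjusted p = 0.000224). Neither gene overlapped between the groups, and both calls held in all 18 alternatives. The genes are near-identical copies on chromosome 17, so how reads were divided between them is uncertain. Their 250 bases before the start site, from RefSeq (GRCm38.p6, both on the minus strand), are shown because the members moved together. Of the 250 positions 247 were identical and 3 differed. Hspa1a lies at chr17:34972157-34972406 and Hspa1b at chr17:34959239-34959488. Capitals mark a match to the heat shock element, searched as GAANNTTC or TTCNNGAA, which each is its own reverse complement.
Hspa1a: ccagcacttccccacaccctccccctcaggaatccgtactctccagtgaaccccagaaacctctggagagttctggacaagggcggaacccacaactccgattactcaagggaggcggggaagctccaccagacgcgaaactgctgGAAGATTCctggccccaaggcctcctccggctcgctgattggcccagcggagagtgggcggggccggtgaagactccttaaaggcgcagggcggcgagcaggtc
Hspa1b: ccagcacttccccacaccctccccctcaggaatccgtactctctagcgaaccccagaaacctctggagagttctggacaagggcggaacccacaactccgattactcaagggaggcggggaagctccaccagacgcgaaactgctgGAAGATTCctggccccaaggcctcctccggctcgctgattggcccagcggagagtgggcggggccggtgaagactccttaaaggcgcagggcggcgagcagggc
Each window held 1 match, and 12.8% of 32851 RefSeq promoter windows of that length held at least 1.

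Of 18 tested chaperone genes, 3 fell (1.9% of all tested genes) and none rose (0.721%), with a median log2 change of -0.10 against 0.00056 over all genes. The third that fell was Hspe1, the mitochondrial co-chaperone, at 83.7, 91.9 and 86.8 FPKM against 119.7, 121 and 104 FPKM (log2 change -0.46). Its partner Hspd1 read 60.9, 49.1 and 54.5 against 52.6, 47.4 and 55.1 FPKM and was not called (log2 change 0.040, adjusted p = 0.804). Hspb8 and Cryab were at 0 in all 6 libraries, and Hspb1 was not tested.

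Metallothioneins are small cysteine-rich proteins that bind zinc and copper, induced through metal response elements. They were among the most abundant transcripts here. Mt2 read 2722, 2743 and 2732 FPKM in control-CAR and 3591, 3688 and 3478 FPKM in Hoxb8 macrophages, with tight groups that did not overlap (log2 change -0.49, SE 0.08, edgeR adjusted p = 0.00323). Mt1 read 6123, 6289 and 6287 against 7734, 8049 and 7505 FPKM (log2 change -0.42, edgeR adjusted p = 0.0138). The Mt2 call held in all 18 alternatives, and that of Mt1 was lost without control-CAR replicate 3 (adjusted p = 0.0604) and without Hoxb8 macrophage replicate 2 (0.0775). The other 6 tested genes of the list, zinc transporters, were not called. Slc30a1, the zinc exporter, read 4.2, 3.37 and 3.98 against 2.94, 3.1 and 3.26 FPKM (log2 change 0.27, adjusted p = 0.104). The 250 bases before the Mt2 start site (RefSeq, GRCm38.p6, chr8:94172368-94172617, plus strand) are shown. Capitals mark matches to TGCNCNC on either strand, the loose pattern used to search for the metal response element.
Mt2: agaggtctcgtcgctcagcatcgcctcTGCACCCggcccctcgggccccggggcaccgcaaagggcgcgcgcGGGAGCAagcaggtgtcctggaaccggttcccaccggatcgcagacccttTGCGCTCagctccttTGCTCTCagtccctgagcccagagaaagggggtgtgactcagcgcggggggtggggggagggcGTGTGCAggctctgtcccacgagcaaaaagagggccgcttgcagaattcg
This window held 5 matches to that pattern, and whether they work as metal response elements was not tested. Of all windows 44.4% held at least 1 and 4.65% at least 3. All motifs were chosen after the values were seen.

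Immediate early factors are transcription factors and RNA-binding regulators that cells induce within minutes of a signal. Of 26 tested, 5 fell (1.9% of all tested genes) and 0 rose (0.721%), with a median log2 change of -0.17. In 10 the groups did not overlap, all lower in control-CAR (6.82% of all tested genes). Egr1 read 11.4, 9.27 and 6.42 FPKM in control-CAR and 20.2, 13.6 and 12.8 FPKM in Hoxb8 macrophages (log2 change -0.83, SE 0.18, edgeR adjusted p = 0.0166). The spread was wide in both groups, and the call was lost without control-CAR replicate 3 (adjusted p = 0.0862) and without Hoxb8 macrophage replicate 1 (0.107). Fos, a subunit of AP-1, read 18.1, 15.9 and 14.8 against 25.2, 21.6 and 22.7 FPKM (log2 change -0.56, edgeR adjusted p = 0.00111), and held in every fit with 1 library left out. Zfp36, which destabilises cytokine messages, read 61.8, 82 and 78.5 against 112, 101 and 87.5 FPKM (log2 change -0.48). Its call was lost without Hoxb8 macrophage replicate 1 (adjusted p = 0.108) or replicate 2 (0.0626). Nr4a1, an orphan nuclear receptor, fell by 0.30 on the log2 scale. Leaving out control-CAR replicates 1 (adjusted p = 0.064) and 3 (0.104) or Hoxb8 macrophage replicates 1 (0.108) and 2 (0.0607), each in turn, ended its call. Junb, another AP-1 subunit, fell by 0.27 and kept its call in 1 of the 6 fits with a library left out (without control-CAR replicate 2), with adjusted p-values of 0.0628 to 0.196 in the others. The 6 libraries alone called 1 of the 26, and without control-CAR replicate 1 the count was 3.

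Of 20 tested inflammatory cytokine genes, 2 fell (1.9% of all tested genes) and 0 rose (0.721%), both of the interleukin-6 family. Osm, oncostatin M, read 174, 149.9 and 160.0 FPKM in control-CAR and 222, 213 and 222 FPKM in Hoxb8 macrophages (log2 change -0.49, SE 0.06, edgeR adjusted p = 0.000162). Lif, leukemia inhibitory factor, read 11.7, 9.07 and 9.47 against 16.5, 13.3 and 18 FPKM (log2 change -0.72, SE 0.10, edgeR adjusted p = 0.000443). Both calls held in all 18 alternatives. Il1b, Il6 and Tnf did not pass. Il1b read 6020.4, 6344 and 6639 against 6561, 6216 and 6486 FPKM (log2 change -0.07, adjusted p = 0.624, and -0.0091 without control-CAR replicate 1). Il6 read 522, 351 and 378 against 470.3, 458 and 480.1 FPKM (log2 change -0.23, adjusted p = 0.347). Control-CAR replicate 1 was the highest of the 6 in Il6, and without it the log2 change was -0.39 (adjusted p = 0.0893). The fit on the 6 libraries without it, added after seeing the data, called Il6 lower (log2 change -0.40, adjusted p = 0.0047). Tnf read 110.4, 148 and 161 against 195, 149 and 127 FPKM (log2 change -0.21, adjusted p = 0.439), and without control-CAR replicate 1 its log2 change was -0.045. With all 6 libraries in, the groups of these 3 genes overlapped.

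Among 12 CC chemokine genes only Ccl17, a ligand of the chemokine receptor CCR4, was called in the main fit, as lower (1.9% of all tested genes). DESeq2 and library totals each called 2 of the 12 lower, and the 6 libraries alone called 0. Ccl17 read 49.3, 90 and 68 FPKM against 112, 134 and 122 FPKM (log2 change -0.93, edgeR adjusted p = 0.0103). Control-CAR replicate 1 was the lowest. The call was lost without control-CAR replicate 3 (adjusted p = 0.055), without Hoxb8 macrophage replicate 2 (0.0564) and with the 6 libraries alone (0.0592). Ptgs2, the inducible cyclooxygenase, read 1293, 1129 and 1170 against 1594, 1398 and 1363 FPKM (log2 change -0.32). It was lost without control-CAR replicate 3 (adjusted p = 0.0831) and without Hoxb8 macrophage replicate 1 (0.113). Of 27 tested type I interferon response genes 1 fell (1.9% of all tested genes) and 0 rose (0.721%). The called gene was Bst2, which tethers budding virus. It was lower, at 252, 260 and 249 against 296, 314 and 294 FPKM (log2 change -0.32). It was lost without control-CAR replicates 1 (adjusted p = 0.0545) and 3 (0.081) and Hoxb8 macrophage replicate 2 (0.0919).

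Other falls were scattered over the lists. Vim, the intermediate filament protein vimentin, read 1166, 1328 and 1333 FPKM against 1626, 1719 and 1656 FPKM (log2 change -0.43, edgeR adjusted p = 0.00203). Bhlhe41, a repressor found in alveolar macrophages, read 13.8, 14.2 and 13.7 against 22.2, 18.8 and 17.6 FPKM (log2 change -0.53). Timp1, an inhibitor of matrix proteases, read 3.74, 5.76 and 4.41 against 7.26, 9.02 and 8.16 FPKM (log2 change -0.87). Each kept its call with any 1 library left out, while Timp1 lost it with the 6 libraries alone (adjusted p = 0.0722). H2-Q4, an MHC class Ib gene, fell by 0.92 on the log2 scale in all 18 alternatives, but it belongs to a family of close copies that share reads.

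Of 22 hypoxia response genes, 2 fell (1.9% of all tested genes) and 0 rose (0.721%), with a median log2 change of -0.17, and DESeq2 called 6 lower. Adm, the vessel-dilating peptide adrenomedullin, read 1.87, 1.94 and 3.01 FPKM against 4.49, 3.24 and 4.89 FPKM (log2 change -0.93). The call of Adm was lost without control-CAR replicates 1 (adjusted p = 0.064) and 2 (0.0588) and Hoxb8 macrophage replicates 1 (0.0861) and 3 (0.065). Higd1a, a mitochondrial protein, read 91.7, 81.4 and 77.7 against 95.6, 111 and 110.2 FPKM (log2 change -0.39), and its call was lost without control-CAR replicate 3 (adjusted p = 0.0782) and Hoxb8 macrophage replicate 2 (0.0628). Of 16 lipid-associated macrophage genes, 3 fell (1.9% of all tested genes) and 0 rose (0.721%). These were Lpl, lipoprotein lipase (log2 change -0.39), Gpnmb, a lysosomal glycoprotein (-0.38), and Fabp5, a fatty acid carrier (-0.35). All 3 were lost without control-CAR replicate 1, with adjusted p-values of 0.0981, 0.0732 and 0.147, and with the 6 libraries alone. They were also lost without control-CAR replicate 3 (0.0879, 0.0923 and 0.125) and Hoxb8 macrophage replicates 1 (0.128, 0.134 and 0.216) and 2 (0.105, 0.098 and 0.1), and Lpl without Hoxb8 macrophage replicate 3 (0.0703). Of 22 tested genes of the integrated stress response, 2 fell (1.9% of all tested genes), Aldh1l2 and Ppp1r15a (log2 change -0.26), and 0 rose (0.721%). With the 6 libraries alone, the calls of Egr1 (adjusted p = 0.0859), Ptgs2 (0.0985), Bst2 (0.0652), Adm (0.0843), Ppp1r15a (0.0992) and Cdkn1a (0.117) were lost as well. The phosphatase subunit Ppp1r15a was lost without control-CAR replicate 3 (adjusted p = 0.055) and Hoxb8 macrophage replicate 1 (0.0741). Of 22 tested cell cycle inhibitors and p53 targets, 1 fell (1.9% of all tested genes) and 1 rose (0.721%). Cdkn1a, the cell cycle inhibitor p21, read 765, 778 and 776 against 915, 827 and 924 FPKM (log2 change -0.25). Its call was lost without control-CAR replicates 1 (adjusted p = 0.0651) and 3 (0.0828) and Hoxb8 macrophage replicates 1 (0.113) and 3 (0.0707). The gene that rose was Aen, at 4.67, 4.82 and 4.77 against 3.8, 3.76 and 3.79 FPKM (log2 change 0.29). Only the fit without control-CAR replicate 1 kept its call among those with 1 library left out, and the 6 libraries alone lost it (adjusted p = 0.119).

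The rises were smaller than the falls. Rbm3, an RNA-binding protein known to be induced by mild cold (chrX:8138975-8145880, GRCm38.p6), read 124, 108 and 112 FPKM in control-CAR and 79, 82.5 and 83.1 FPKM in Hoxb8 macrophages. The groups did not overlap, a rise of 1.35-fold (log2 change 0.43, SE 0.06, edgeR adjusted p = 0.000615) that held in all 18 alternatives. Cirbp, the related cold-inducible protein, read 15.9, 16.1 and 16.1 against 10.2, 12.4 and 11.2 FPKM (log2 change 0.43). Its adjusted p was 0.0497, and leaving out any library but Hoxb8 macrophage replicate 2 lost the call, with adjusted p-values of 0.0711 to 0.2.

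Abhd2, a hydrolase, read 16.9, 15.5 and 16.9 against 12.5, 12.8 and 11.3 FPKM (log2 change 0.39) and kept its call with any 1 library left out. Cd300ld, a surface receptor of myeloid cells, read 41.3, 42.1 and 45.2 against 32.5, 31.5 and 31.7 FPKM (log2 change 0.38, adjusted p = 0.0193 with the 6 libraries alone). Il1f6, which encodes the cytokine interleukin-36 alpha, read 211, 189.9 and 181 against 149, 123 and 159 FPKM (log2 change 0.37). All control-CAR libraries lay above all Hoxb8 macrophage libraries in these genes. The other named rises were Xdh (xanthine dehydrogenase), Lsg1 (a ribosome assembly GTPase), Hsd11b1 (which regenerates glucocorticoid), Mindy3 (a deubiquitinase), Cd44 (the hyaluronan receptor), Il17ra (the interleukin-17 receptor) and Pfkfb3 (an activator of glycolysis). Their log2 changes ran from 0.31 to 0.37. None of these 7, nor Cd300ld or Il1f6, kept its call in all 6 fits with 1 library left out.

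The calls of these smaller rises depended on single libraries. Without control-CAR replicate 1 the calls of Il1f6 (adjusted p = 0.0726), Lsg1 (0.089) and Mindy3 (0.0999) were lost. Without control-CAR replicate 2 those of Il1f6 (0.0687), Hsd11b1 (0.0899), Cd44 (0.0893) and Il17ra (0.0607) were lost. Without control-CAR replicate 3 the genes lost were Cd300ld (0.0903), Il1f6 (0.0619), Xdh (0.0711), Lsg1 (0.0801), Hsd11b1 (0.079), Cd44 (0.209) and Pfkfb3 (0.0852). All 9 were lost without Hoxb8 macrophage replicate 1 (adjusted p from 0.0615 to 0.164), and all but Xdh without replicate 2 (0.0533 to 0.138). Without Hoxb8 macrophage replicate 3 Mindy3 (0.0611), Cd44 (0.0988) and Pfkfb3 (0.065) were lost. The direction held in each of these fits. With the 6 libraries alone, Rbm3, Abhd2, Cd300ld and Pfkfb3 kept their calls, and the other 8 of the 12 largest rises had adjusted p-values of 0.0531 to 0.117. Of the 19 glycolysis genes, Pfkfb3 alone rose (0.721% of all tested genes) and Pfkm alone fell (1.9%). In 3 of the 19 the log2 change was above 0 and in 16 below (median -0.076, and -0.014 without control-CAR replicate 1). Pfkm read 17.4, 17.5 and 17.3 against 23, 21.5 and 19.7 FPKM (log2 change -0.35). The 6 libraries alone gave it an adjusted p of 0.0547.

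Of 24 tested NRF2 and glutathione genes, which guard against oxidants, 2 rose and 0 fell by edgeR (0.721% and 1.9% of all tested genes). DESeq2 called 4 higher and 2 lower, and library totals gave 5 higher and 0 lower. In 12 the groups did not overlap with control-CAR higher and in 2 with control-CAR lower (15.1% and 6.82% of all tested genes). Gclm, a subunit of the enzyme that starts glutathione synthesis, read 134, 117 and 122 FPKM against 101, 97.4 and 105 FPKM (log2 change 0.27, edgeR adjusted p = 0.00788) and kept its call with any 1 library left out. Osgin1, a stress-induced growth inhibitor, read 3.36, 3.62 and 3.56 against 1.89, 2.4 and 2.5 FPKM (log2 change 0.59). It was lost without control-CAR replicates 2 (adjusted p = 0.0547) and 3 (0.0788) and Hoxb8 macrophage replicate 1 (0.112). With the 6 libraries alone 0 of the 24 were called, with 7 higher and 2 lower at an unadjusted p under 0.05 (1765 of all 11793 tested genes). Of 18 Fc gamma receptor and ITAM signalling genes, the route that many CARs use, 1 rose (0.721% of all tested genes) and 0 fell (1.9%). In 15 of the 18 the log2 change was above 0 and in 3 below. In 9 the groups did not overlap with control-CAR higher and in 0 with control-CAR lower (15.1% and 6.82% of all tested genes). The called gene was Vav3, a guanine nucleotide exchange factor, at 8.57, 8.11 and 8.23 against 6.21, 7.05 and 6.13 FPKM (log2 change 0.33, adjusted p = 0.0502 without Hoxb8 macrophage replicate 1 and 0.0804 with the 6 libraries alone). Fcgr1, Fcgr3, Fcer1g, Tyrobp and Syk were not called.

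**Figure D4:**
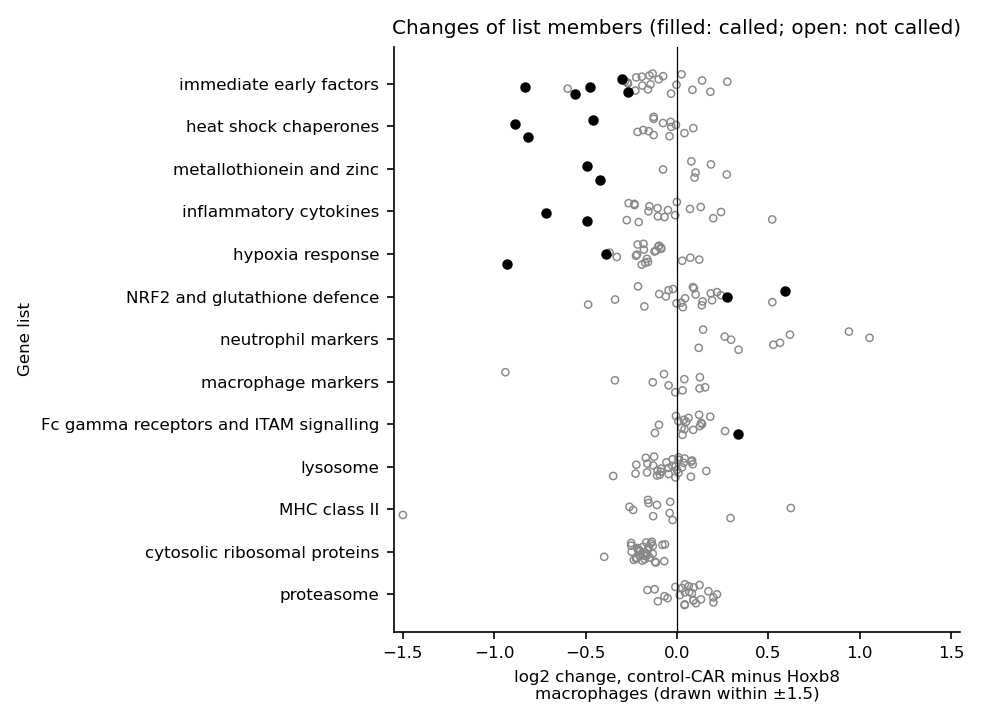
The log2 change of control-CAR minus Hoxb8 macrophages for each tested member, detected in at least 1 of the 6 libraries, of 13 gene lists. Filled points were called and open points were not, and 1 point beyond 1.5 is drawn at the edge. Called members of the immediate early, heat shock, metallothionein, cytokine and hypoxia lists lie below 0, and all 33 cytosolic ribosomal protein genes lie below 0 with none called by edgeR and 4 by DESeq2 (3 of them lie above 0 on log2(TPM + 1)).

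The macrophage label held in both groups, as far as the marker list went. Of 12 macrophage markers, edgeR called 0 (2.62% of all tested genes) and DESeq2 called 0. EdgeR gave 0 of them at an unadjusted p under 0.05 (2128 of all 11793 tested genes). Their median log2 change was -0.0048 (0.025 without control-CAR replicate 1), and their summed level was 12180.2 to 13026 FPKM in control-CAR and 12613 to 13268 FPKM in Hoxb8 macrophages. Csf1r, the CSF1 receptor, read 297, 309 and 302 against 296, 284 and 309 FPKM. Adgre1, which encodes F4/80, read 1091, 1137 and 1165 against 1135, 1039 and 1037 FPKM. Both sets overlapped. Markers of tissue-resident macrophages were low or absent in both groups: C1qa was at 0 in all 6 libraries, and Mertk and C1qb stayed under 1 FPKM. Other cell types were checked by their lists. Among T cell, B cell, red cell and epithelial markers, Cd3e, Cd3g, Ms4a1, Pax5, Hba-a1, Epcam, Krt18 and Krt20 were at 0 in all 6 libraries. The summed level of the T and NK cell list was 0.5 to 0.84 FPKM in control-CAR and 0.67 to 0.78 FPKM in Hoxb8 macrophages, and the B cell list reached at most 0.26 FPKM. The epithelial list summed to 0.45 to 0.85 against 0.37 to 1.16 FPKM, and DESeq2 called 1 of its 4 tested members higher, the adhesion gene Cdh1 (0.46, 0.23 and 0.31 against 0.11, 0.07 and 0.26 FPKM). The erythroid list summed to 1.51 to 3.25 against 1.05 to 1.77 FPKM, with the hemoglobin gene Hbb-bt at a log2 change of 1.04 (adjusted p = 0.139). The fibroblast list summed to 1.95 to 2.76 against 1.56 to 2.37 FPKM, and its 4 tested members had log2 changes above 0 (median 0.55) with none called by edgeR or DESeq2 and none at an unadjusted p under 0.05. Cdh1 and Hbb-bt were named after their values were seen.

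Nos2, Arg1 and Marco, 3 abundant genes of the fixed set, were not called. Nos2, which makes nitric oxide, read 1530.0, 1839.8 and 1798 FPKM in control-CAR and 2132, 2025 and 1784 FPKM in Hoxb8 macrophages (log2 change -0.24, adjusted p = 0.182, and -0.14 without control-CAR replicate 1). Arg1, which competes with it for arginine, read 1498, 1492 and 1506 against 1084, 1155 and 1643 FPKM (log2 change 0.16, adjusted p = 0.583). The control-CAR libraries lay close together in Arg1, inside the range of the Hoxb8 macrophages, of which replicate 3 was the highest. The scavenger receptor gene Marco read 268, 359.9 and 346 against 456, 469.97 and 318 FPKM (log2 change -0.39, adjusted p = 0.143). Its log2 change was -0.25 without control-CAR replicate 1, and without Hoxb8 macrophage replicate 3 it was called (log2 change -0.56, adjusted p = 0.0258). In the lists of S phase, G2 and M phase, lysosome, MHC class II, Toll-like receptor and sterol synthesis genes no member was called by edgeR with TMM scaling. Over all tested genes 2.62% were. DESeq2, and edgeR with library totals or upper quartile scaling, each called 1 sterol synthesis gene lower. Library totals also called 1 Toll-like receptor list gene higher. At an unadjusted p under 0.05, edgeR gave 3 of 24 genes each in the S phase and the G2 and M phase lists. It gave 4 of 17 in the Toll-like receptor list and 2 of 23 in the sterol list, against 2128 of all 11793 tested genes. In the lysosome list 0 were higher and 5 lower at an unadjusted p under 0.05, and DESeq2 called 1. In the MHC class II list 4 were lower at that level and 0 without control-CAR replicate 1.

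Neutrophil markers and most mast cell and basophil markers had log2 changes above 0 that edgeR did not call in the main fit. All 10 neutrophil markers had a log2 change above 0, with a median of 0.43 (0.26 without control-CAR replicate 1). In 6 the groups did not overlap, with control-CAR higher (15.1% of all tested genes). Their summed level was 1714 to 2107 FPKM in control-CAR and 1236 to 1481 FPKM in Hoxb8 macrophages. With all 15 libraries in, edgeR and DESeq2 each called 0 of the 10, and 3 had an unadjusted p under 0.05 by each. Over all 11793 tested genes, 2128 reached that level by edgeR and 1898 by DESeq2. With the 6 libraries alone, edgeR called 1 of the 10 higher, and 6 were higher at that level (1765 of all 11793 tested genes). Ngp, a neutrophil granule protein named here after its values were seen, read 133, 132 and 143 FPKM against 85.6, 81.7 and 89.3 FPKM (log2 change 0.62, adjusted p = 0.050). The fit on the 6 libraries alone called it (adjusted p = 0.0014). S100a8, a calprotectin subunit, read 1440.0, 1112 and 1174 against 898, 722 and 1026 FPKM (log2 change 0.34, adjusted p = 0.434). With the 6 libraries alone its adjusted p was 0.0716. Elane and Mpo, which define early granulocytes, stayed at or under 0.3 FPKM. Of 8 mast cell and basophil markers, 6 had a log2 change above 0, with a median of 0.36 (0.19 without control-CAR replicate 1). In 0 the groups did not overlap with control-CAR higher and in 1 with control-CAR lower (15.1% and 6.82% of all tested genes). EdgeR called 0 of the 8, with 3 higher and 1 lower at an unadjusted p under 0.05, and DESeq2 called 2 higher. Their summed level was 421 to 472 FPKM in control-CAR and 419 to 430.0 FPKM in Hoxb8 macrophages. In bulk RNA, more cells of a type and more RNA per cell cannot be told apart, and the part of such cells in the other differences was not tested.

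Ribosomal protein and proteasome genes had small log2 changes, mostly of 1 sign within each list, and none was called by edgeR with TMM scaling. All 33 cytosolic ribosomal protein genes had a log2 change below 0, with a median of -0.18 (-0.13 without control-CAR replicate 1). EdgeR called 0 of them, with 24 at an unadjusted p under 0.05 (10 without control-CAR replicate 1), and DESeq2 called 4. Limma on log2(FPKM + 1) called 0, with 5 at an unadjusted p under 0.05. Single libraries stood apart in some ribosomal protein genes. Rps21 stood at 622 FPKM in control-CAR replicate 1 and at 1091 to 1254 FPKM in the other 5 libraries, and Rps29 at 1688 FPKM in Hoxb8 macrophage replicate 2 against 1038 to 1189 FPKM, both named after their values were seen. On log2(TPM + 1) 3 of the 33 turned above 0 and on log2(FPKM + 1) 1 did, with medians of -0.093 and -0.11. Genes with 10 FPKM or more were put in 4 equal groups by transcript length. The shortest (median 747 bases) had a median log2 change of -0.069 and the longest (median 4612 bases) one of 0.036, and the part of transcript length in the ribosomal values was not tested. Of 25 proteasome genes, 15 did not overlap with control-CAR higher (15.1% of all tested genes) and 1 with control-CAR lower (6.82%). EdgeR and DESeq2 each called 0, with 5 higher and 1 lower at an unadjusted p under 0.05 by edgeR, and library totals called 2 higher.

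Hoxb8 itself was slightly higher in control-CAR macrophages, at 62, 60.8 and 62.8 FPKM against 48.9, 52.2 and 52.6 FPKM (log2 change 0.23, SE 0.05, edgeR adjusted p = 0.0265). The groups did not overlap. The call was lost without control-CAR replicate 2 (adjusted p = 0.062) or 3 (0.114), without Hoxb8 macrophage replicate 1 (0.131) or 2 (0.0574), and with the 6 libraries alone (0.107). Esr1, the estrogen receptor gene, read 158, 140.2 and 147 against 118, 119 and 126 FPKM, with no overlap. It was not called (log2 change 0.24, adjusted p = 0.0991), while DESeq2 called it (0.0136). Progenitor cells held 122 FPKM of Hoxb8 and 328 of Esr1, and BMDM held 0 and 4.78 FPKM. CAR macrophages held 8.86 and 17.1 FPKM, below both groups compared here. Reads from a construct and from the mouse gene cannot be told apart in this table.

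The levels of some of these genes were set beside the whole series. Mt2 fell from 3586 ± 105 FPKM in Hoxb8 macrophages to 2732 ± 10.6 FPKM in control-CAR (SD, n = 3 each), and stood at 1102 ± 7.4 FPKM in CAR macrophages and 689 ± 81.9 FPKM in BMDM. Hspa1b stood at 34.2 ± 4.88, 19 ± 3.56, 8.85 ± 0.426 and 1.11 ± 0.0777 FPKM in the same order. For Osm, CAR macrophages (208 ± 6.49 FPKM) lay nearer to Hoxb8 macrophages (219 ± 5.34 FPKM) than to control-CAR (161 ± 11.9 FPKM). Lif stood at 39.6 ± 0.906 FPKM in CAR macrophages, above both. CAR macrophages are the group that control-CAR serves as a control for, and these values are given as levels with no test.

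**Figure D5:**
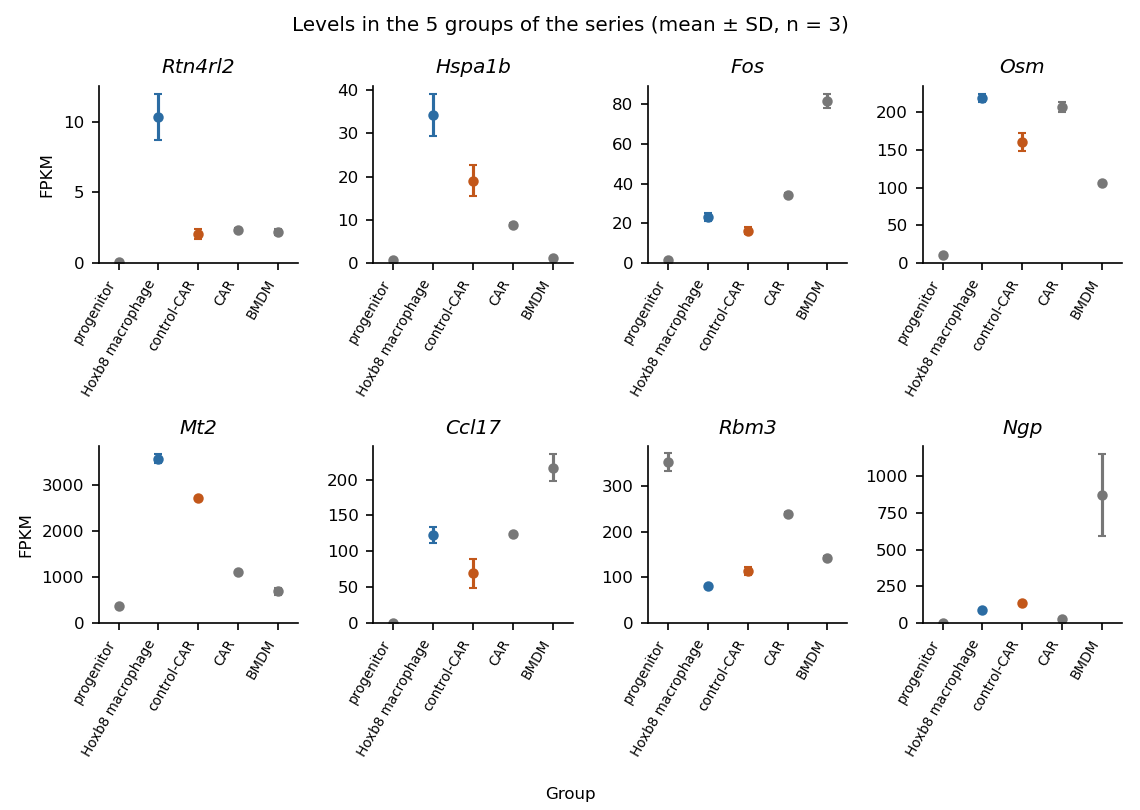
Mean FPKM ± SD (n = 3) of 8 genes in the 5 groups, on linear axes that start at 0. Rtn4rl2 is high in Hoxb8 macrophages alone, Mt2 and Hspa1b step down from Hoxb8 macrophages to control-CAR and CAR macrophages, and Ngp has a wide spread in BMDM.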

How the data were processed

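The deposited table gives, per gene and library, estimated counts, FPKM and TPM made by the authors. Per the submitters' processing notes the tools included HISAT2, Bowtie2, RSEM 1.3.1 and DESeq2 1.4.5, with build GRCm38.p6. Estimated counts (94.4 to 96.0% whole) were rounded. Genes with an FPKM of at least 1 in at least 3 of 15 libraries were tested (11793, with 5237 left out) with edgeR 4.0.16 (quasi-likelihood, TMM, two-sided, Benjamini-Hochberg), all 15 libraries in 1 model with a mean per group. TMM factors were 0.825 to 0.877 in control-CAR and 0.824 to 0.829 in Hoxb8 macrophages. Alternatives used limma 3.58.1 on log2 of the deposited FPKM or TPM plus a pseudocount, and DESeq2 1.42.0. The 15 columns of group averages were not used. The code was tested on simulated data. Gene positions, promoters and IDs (16978 of 17030 matched) came from RefSeq, and 25 symbols turned into dates were restored by ID. Promoters were found for 9535 tested genes.

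Named genes were the 12 largest rises and falls among called, non-overlapping genes with at least 10 FPKM in the higher group, up to 4 called members of each of 56 lists, and a fixed set of 26. The genes and lists were chosen with earlier results of these data known. Same-numbered libraries did not deviate together (correlations -0.060, -0.013 and -0.029), so the numbers were not taken as pairs.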

Additional observations from a re-analysis of the deposited data

How the results depend on the processing

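The 18 alternatives set at the start and 1 chosen after seeing the data (the 6 libraries without control-CAR replicate 1, 304 genes called) were run. Of the 309 genes called, 27 were called in all 18, 24 lower and 3 higher. The counts beyond 1.5 times the reported ones were as follows. Library totals gave 470 genes called, 278 of them higher. Limma on log2(FPKM + 1) gave 248 higher and 29 at 1.5-fold or more. Limma on log2(FPKM + 0.1) gave 241 higher and 137 lower, and limma on log2(TPM + 1) gave 310 higher, 147 lower and 35 at 1.5-fold. An FPKM of at least 5 left 44 at 1.5-fold. The 6 libraries alone gave 97 called, 12 higher and 85 lower. With 1 library left out, the ranges were 106 to 311 called, 13 to 75 higher, 93 to 241 lower and 44 to 67 at 1.5-fold. The replicate block, which rests on numbers that do not pair the samples, gave 48 called, 4 higher and 44 lower, with 35 at 1.5-fold.

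Of the fixed set, 6 genes that were not called turned sign. Csf1r (log2 change -0.0096) turned to 0.026 with library totals, 0.030 with both FPKM settings, 0.044 with TPM and 0.024 with the added alternative. Cd34 (-0.013) turned to 0.023, 0.028, 0.044 (pseudocount 0.1), 0.041 and 0.063 in that order. Spp1 (-0.030) turned to 0.0070, 0.022, 0.022 and 0.035 in the first 4. Mrc1 (-0.043) turned to 0.0022, 0.022 and 0.0097 with FPKM, its lower pseudocount and TPM, and Cd68 (-0.071) to 0.082 with the added alternative. Mki67 (0.0022) turned to -0.0091 with upper quartile scaling, -0.0037 with DESeq2 size factors, -0.0035 with DESeq2 and -0.0011 with an FPKM of at least 5. With 1 library left out, these ranged from -0.046 to 0.029 (Csf1r), -0.14 to 0.098 (Cd34), -0.060 to 0.020 (Spp1), -0.19 to 0.21 (Mrc1), -0.17 to 0.087 (Cd68) and -0.15 to 0.11 (Mki67). The causes were not tested. With 3 libraries a group, calls near the threshold rested on single libraries.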

Other observations

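Control-CAR replicate 1 stood apart in single genes. Luc7l2, a splicing factor, stood at 47.4 FPKM there and at 23.2 to 35 FPKM in the other 5 libraries. Its relative Luc7l3 stood at 22 against 10.2 to 13.3 FPKM, Rbm25 at 26.9 against 13.4 to 16.7 FPKM, and Hnrnph1 at 68 against 41.5 to 51.2 FPKM. These 4 genes and those below were picked after their values were seen, from 47 genes above and 57 below the other 5 libraries, and no gene group was tested. In the same library, the dendritic cell integrin gene Itgax was low, at 14.7 against 22.7 to 27.8 FPKM, as were Il13 (24.9 against 40.3 to 72.8 FPKM), Ccl22 (376 against 453 to 581 FPKM) and Hamp, the iron hormone hepcidin (2398 against 3295 to 4049 FPKM).

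Prg2 and Prss34 varied within both groups. Prg2, the eosinophil major basic protein, stood at 218 FPKM in control-CAR replicate 1 and at 89.3 FPKM in Hoxb8 macrophage replicate 1, with the other 4 libraries between 117 and 158 FPKM. Prss34, a basophil protease, stood at 25.3 FPKM in control-CAR replicate 1, 8.03 FPKM in Hoxb8 macrophage replicate 1 and 11.1 to 17.5 FPKM in the other 4.

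In Hoxb8 macrophage replicate 2, Rpl37 stood at 375 FPKM against 228 to 267 FPKM in the other 5 libraries. For Rpl38 the 2 measures disagreed in that library. Its CPM lay above the other 5 libraries, by 0.38 on the log2 scale from their median. Its FPKM of 1370.5 lay below their 1406 to 1604 FPKM. Csta3, Cox17, Ndufa3, Slirp and H4c9 also lay above the other 5 by CPM in that library but inside their range by FPKM. Csta3, for example, stood at 534 FPKM against 478 to 617 FPKM.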
